A study of Mus musculus with 47 samples.

Results

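The expression of 7 genes of cholesterol synthesis and its control was followed across the day in the cortex of male mice with intact or depleted microglia. The genes were *Hmgcs1*, *Sqle*, *Insig1*, *Idi1*, *Fdft1*, *Cyp51* and *Srebf2*. They were picked by symbol and matched by Ensembl identifier through GENCODE M21, which found all 7 among the 54281 genes of the deposited TPM table. All 7 also passed the filter for expression, a mean over all libraries of 1 TPM or more, which kept 14580 genes. TPM is a level per transcript length, scaled to the same sum in every library. None of the 7 is a receptor for the uptake of cholesterol, so uptake genes were followed only through a separate list. A single RNA sequencing library was made from the cortex of each of 47 mice. All mice were wild-type C57BL/6J males of about 3 months. For 10 days, 23 of them had control chow and 24 had AIN-76A chow with 1200 ppm PLX5622, a blocker of CSF1R, the receptor that microglia need to survive. Tissue was taken at Zeitgeber time (ZT, hours after lights on) 2, 6 and 10 in the light phase and 14, 18 and 22 in the dark phase, which gave 12 groups of 4 mice, apart from 3 control mice at ZT14.

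The adult brain makes its own cholesterol, because lipoproteins of the blood do not cross the blood-brain barrier. In the mevalonate arm of the pathway, acetyl-CoA is built into isoprenoid units, and in the sterol arm these are joined to squalene and converted to cholesterol. The transcription factor SREBP-2 is held in the endoplasmic reticulum while sterols are plentiful and turns on most genes of the pathway when they run low.

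The mitochondrial share of the counts lay between 6.46% and 9.73% in control mice and between 6.72% and 10.0% in PLX5622 mice. Counts per library ran from 16597987 to 27626161, with medians of 18314954 for control and 21476967.5 for PLX5622 mice. The labelled tissue was checked with marker lists of 14 microglial, 10 neuronal and 9 striatal genes. The microglial list had a mean log2(TPM + 1) of 4.96 to 5.52 in control mice and 1.02 to 2.99 in PLX5622 mice, without overlap. The neuronal list was at 8.10 to 8.77 and 8.12 to 8.71. The striatal list was at 3.90 to 6.43 and 4.60 to 6.24, so that the amount of striatal RNA differed between the dissected samples of both diets. In bulk tissue, fewer cells of a type and less RNA per cell cannot be told apart.

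The sequences before the start sites of *Hmgcs1*, *Insig1* and *Srebf2* are shown because the first 2 genes had the daily rhythms described here and the third encodes the transcription factor of the pathway. Promoters of 5 of the 7 genes were matched in RefSeq on GRCm38.p6 (*Hmgcs1*, *Insig1*, *Idi1*, *Cyp51* and *Srebf2*), and the 250 bases before each start were searched on both strands for the core of the sterol regulatory element (TCACNCCAC), the CCAAT box (CCAAT), the GC box (GGGCGG) and the E-box (CACGTG). Capitals mark these letters, as they stand or as their reverse complement. Only bases before the most upstream annotated start are printed. The stretches lie on the plus strand at chr13:119690101-119690350 (*Hmgcs1*), chr5:28071162-28071362 (*Insig1*) and chr15:82147019-82147180 (*Srebf2*).
Hmgcs1: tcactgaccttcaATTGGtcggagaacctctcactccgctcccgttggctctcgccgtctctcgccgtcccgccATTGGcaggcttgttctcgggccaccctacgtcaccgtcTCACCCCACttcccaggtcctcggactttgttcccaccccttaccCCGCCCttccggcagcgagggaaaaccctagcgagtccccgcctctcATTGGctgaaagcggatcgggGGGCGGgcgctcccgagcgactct
Insig1: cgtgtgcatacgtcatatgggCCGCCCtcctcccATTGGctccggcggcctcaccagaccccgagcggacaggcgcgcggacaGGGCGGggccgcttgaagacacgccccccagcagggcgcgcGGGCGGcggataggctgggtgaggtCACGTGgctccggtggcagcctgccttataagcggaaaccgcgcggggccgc
Srebf2: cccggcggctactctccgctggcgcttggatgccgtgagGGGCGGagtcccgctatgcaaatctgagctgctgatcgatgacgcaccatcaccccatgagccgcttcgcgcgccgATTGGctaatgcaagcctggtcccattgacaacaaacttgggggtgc
*Hmgcs1* was the only one of the 5 with a match to the sterol regulatory element core, TCACCCCAC, 137 to 129 bases before its start, and 1.05% of all 32851 promoters held a match. *Insig1* was the only one with the E-box, 101 to 96 bases before its start, which 6.02% of promoters held. All 5 held a CCAAT box and a GC box, found in 33.9% and 32.7% of promoters. None of these matches overlapped another in the stretches printed. A match describes the letters in this window and does not show that a factor binds there.

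The 7 genes were all well above the detection limit, with 401 (*Idi1*) to 7367 (*Srebf2*) counts per library. Over the 47 libraries, *Hmgcs1*, the synthase that makes HMG-CoA at the entry to the mevalonate arm, was the most abundant with 114.0 ± 12.6 TPM (SD). *Srebf2*, which encodes SREBP-2, followed with 95.1 ± 9.03 TPM. *Insig1*, which encodes a protein that holds the SREBP complex in the endoplasmic reticulum, was at 47.5 ± 8.32 TPM. *Fdft1* (squalene synthase) was at 37.2 ± 4.54 TPM and *Idi1* (isopentenyl diphosphate isomerase) at 35.9 ± 3.63 TPM, which did not differ beyond their spread. *Sqle* (squalene epoxidase) was at 30.2 ± 4.24 TPM and *Cyp51* (lanosterol demethylase) at 29.2 ± 4.17 TPM, again within their spread. On GRCm38, *Hmgcs1* lies on chromosome 13 from 119690379 to 119708260, *Insig1* on chromosome 5 from 28071363 to 28078662 and *Srebf2* on chromosome 15 from 82147181 to 82205379. *Fdft1* shares 18.3% of its exon bases with *Ctsb* on the other strand, *Hmgcs1* 12.1% with the antisense gene *Gm48342*, *Idi1* 9.22% with *Gm48574* and *Cyp51* 3.76% with *Akap9*. Strandedness is not given in the sources used here, so that reads from these stretches cannot be told apart.

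**Figure D1:**
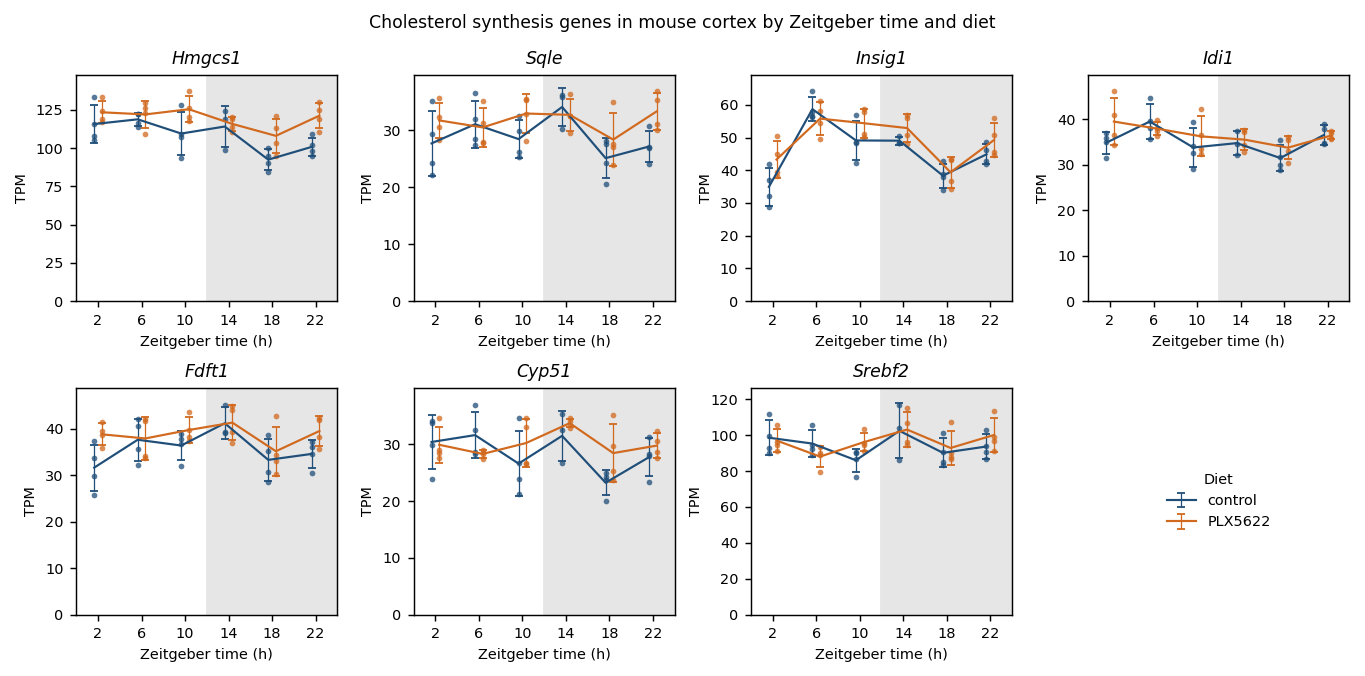
Level in TPM (vertical axis, from 0) of the 7 genes by Zeitgeber time in hours (horizontal axis, dark phase shaded) in control and PLX5622 mice; points are mice and lines join the group means with SD. In control mice the mean of *Insig1* lies between 34.9 TPM at ZT2 and 58.7 TPM at ZT6, and the lowest mean of *Hmgcs1* is at ZT18 in both diets.

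To see whether the loss of microglia went along with a change in these genes, PLX5622 mice were compared with control mice over all Zeitgeber times. *Hmgcs1* rose with PLX5622, and the other 6 genes did not pass the test. In control mice *Hmgcs1* had a lowest value of 84.5 TPM, a median of 108.3 TPM and a highest value of 133.8 TPM. With PLX5622 these were 94.9, 119.8 and 137.2 TPM. The ranges overlapped, with 22 of the 24 PLX5622 mice above the control median and 1 above every control mouse, and the PLX5622 mean was the higher one at all 6 Zeitgeber times. The mean was 10.1% higher, and the log2 fold change on the log2(TPM + 1) scale was 0.15 (standard error 0.038, limma adjusted p = 0.0171).

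*Sqle* and *Fdft1*, which act next to each other at the start of the sterol arm, had log2 fold changes of nearly the same size. *Sqle* was at 20.6 to 36.6 TPM in control mice (median 28.2) and at 23.97 to 36.9 TPM in PLX5622 mice (median 31.8), a log2 fold change of 0.14 (standard error 0.055) with a limma adjusted p of 0.173. *Fdft1* was at 25.8 to 45.3 TPM (median 36.2) and at 30.4 to 45.1 TPM (median 38.9), a log2 fold change of 0.12 (standard error 0.048) with an adjusted p of 0.172. Both groups overlapped over most of their range, and both genes had an unadjusted p of 0.014 in limma. *Insig1* had a log2 fold change of 0.11 (95% interval -0.013 to 0.23), *Cyp51* of 0.092 (-0.027 to 0.21), *Idi1* of 0.060 (-0.017 to 0.14) and *Srebf2* of 0.035 (-0.048 to 0.12). With the mitochondrial share as a covariate, chosen after the data were seen, *Sqle* and *Fdft1* passed as well (adjusted p of 0.0126 and 0.0141), and with edgeR on the counts *Cyp51* did (0.0335).

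By the test over all genes, 1 of the 7 genes (*Hmgcs1*, higher) was called, against a background of 3.45% of the 14580 genes called in either direction and 0.871% called higher (127 higher and 376 lower). Without mitochondrial genes in the TPM the calls were 263 higher and 434 lower, and with the mitochondrial share as a covariate 499 and 488. All 7 log2 fold changes were above 0, with a median of 0.11 beside 0.031 over all genes. That of *Srebf2* turned to -0.0095 with edgeR and stayed under 0 in all 4 fits on the counts. The call of *Hmgcs1* held in all 47 fits that each left out a library (adjusted p from 0.00533 to 0.0310) and missed the threshold with edgeR without a filter (0.0522).

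Beside the 7 genes, the rest of the pathway was described from lists. Of the other 5 genes of the mevalonate arm 0 were called in limma, with all 5 log2 fold changes above 0 and a median of 0.11. At an unadjusted p under 0.05 they were 3 of 5, and edgeR called 0. Limma called 2 of the 5 in TPM without mitochondrial genes and 3 with the mitochondrial share as a covariate. Of the other 8 genes of the sterol arm 3 rose and 0 fell, with 7 log2 fold changes above 0 and a median of 0.14. *Nsdhl*, which takes part in removing methyl groups from sterol intermediates, was at 12.2 ± 1.995 TPM (SD) in control mice and rose to 14.2 ± 1.60 TPM with PLX5622 (log2 fold change 0.21, adjusted p = 0.00459). *Sc5d*, a desaturase near the end of the arm, rose from 30.2 to 33.8 TPM (0.16, adjusted p = 0.0290), and *Msmo1*, the methyl sterol oxidase, from 60.0 to 65.7 TPM (0.13, adjusted p = 0.0452). Each of these 3 had the higher mean in PLX5622 mice at all 6 Zeitgeber times. The call of *Msmo1* was lost in 31 of the 47 fits that left out a library, and without the first control mouse at ZT18 only 1 of the 8 was called.

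The genes that regulate SREBP and those outside the pathway gave other counts. Of the 5 other SREBP regulators 0 were called in limma (median log2 fold change 0.025), none at an unadjusted p under 0.05. Of 9 genes of fatty acid synthesis 0 were called (median 0.011), again none at an unadjusted p under 0.05, and edgeR called 0 in both lists. Of 16 genes of cholesterol uptake, transport and turnover 4 fell and 0 rose (median -0.016). *Mylip*, a ubiquitin ligase that degrades lipoprotein receptors, fell from 6.67 to 4.56 TPM (log2 fold change -0.47, adjusted p = 3.423e-11), and 19 of 24 PLX5622 mice were below every control mouse. *Nr1h2*, the sterol sensor LXR-beta, fell from 55.1 to 48.3 TPM (-0.18, adjusted p = 1.620e-04). *Npc2*, a lysosomal cholesterol carrier, fell from 36.9 to 33.4 TPM (-0.14, adjusted p = 0.0269), and *Lrp1*, a large lipoprotein receptor, from 71.8 to 61.2 TPM (-0.24, adjusted p = 0.0475). The call of *Lrp1* did not hold in edgeR, where its log2 fold change was -0.048 (adjusted p = 0.733), nor in 31 of the 47 fits that left out a library.

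**Figure D2:**
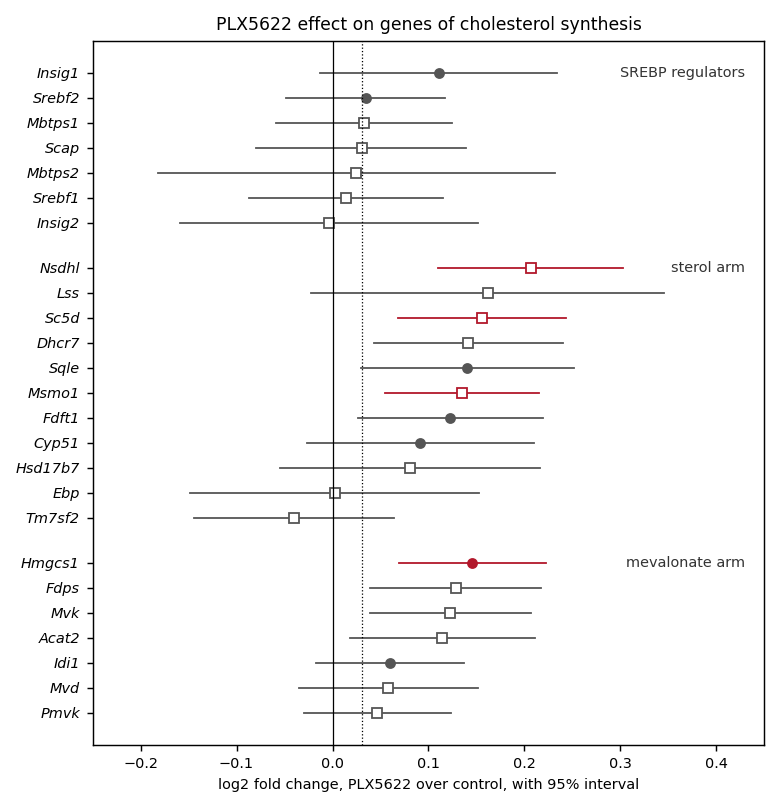
Log2 fold change, PLX5622 over control, with its 95% interval (horizontal axis) for the genes of the mevalonate arm, the sterol arm and the SREBP regulators; filled circles are the 7 genes, open squares the other genes, red marks an adjusted p under 0.05, and the dotted line is the median of all genes (0.031). *Hmgcs1*, *Nsdhl*, *Sc5d* and *Msmo1* are red, and 17 of the 18 genes of the 2 arms lie above 0 (16 after median-of-ratios scaling, 18 with edgeR).

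Some genes of other cell type lists were called for diet as well, against 3.45% of all genes called in either direction. All 14 microglial genes fell (median log2 fold change -3.13), 5 of 8 choroid plexus genes, 2 of 10 oligodendrocyte genes and 1 of 10 astrocyte genes rose, and 0 of 10 neuronal genes, 0 of 6 genes of oligodendrocyte precursors, 0 of 8 endothelial genes and 0 of 9 striatal genes were called in limma. At an unadjusted p under 0.05 these 4 lists had 1, 1, 0 and 0 genes, and edgeR called 1, 1, 0 and 0. The medians were 0.41 for choroid plexus, 0.15 for oligodendrocytes, 0.18 for the striatal genes and 0.012 for astrocytes, beside 0.031 over all genes. With edgeR, 3 of 8 choroid plexus, 3 of 10 oligodendrocyte and 1 of 10 astrocyte genes were called. The part of these cell types in the change of *Hmgcs1* was not tested.

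Across the day, *Insig1* and *Hmgcs1* had a 24-h rhythm when both diets were fitted together. *Insig1* was highest at ZT6, with a lowest value of 49.4 TPM, a median of 57.1 TPM and a highest value of 64.1 TPM in 8 mice. It was lowest at ZT18, with 34.0, 38.3 and 43.6 TPM, and at ZT2, with 28.8, 38.8 and 50.5 TPM. The 8 mice at ZT6 were all above the 8 mice at ZT18. In control mice the 4 values at ZT2 were 32.0, 28.8, 37.0 and 41.8 TPM and the 4 at ZT6 were 56.3, 56.5, 64.1 and 57.8 TPM, so that the level rose within 4 h and the groups did not overlap. In PLX5622 mice the values were 38.2, 50.5, 44.9 and 39.4 TPM at ZT2 and 49.4, 54.3, 61.3 and 58.1 TPM at ZT6, where 1 mouse at ZT2 was above 1 mouse at ZT6. From the highest mean the order was ZT6, ZT10, ZT14, ZT22, ZT2 and ZT18, and of the 5 neighbours in that order only ZT22 and ZT2 differed by more than the larger of their SDs. The fitted amplitude was 0.20 on the log2(TPM + 1) scale (standard error 0.043) with a peak at ZT 9.09 (standard error 0.817 h), and the limma adjusted p was 0.00619. As a factor with 6 levels in place of the 24-h wave, ZT gave an adjusted p of 7.461e-07.

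*Hmgcs1* followed a shallower course. It was highest at ZT6, with a lowest value of 109.4 TPM, a median of 122.5 TPM and a highest value of 129.4 TPM in 8 mice. At ZT18 it was lowest, with 84.5, 97.7 and 120.9 TPM, and the ranges overlapped. The order from the highest mean was ZT6, ZT2, ZT10, ZT14, ZT22 and ZT18, and no neighbours differed by more than the larger of their SDs. The fitted amplitude was 0.11 (standard error 0.027) with a peak at ZT 6.08 (standard error 0.904 h), and the limma adjusted p was 0.0158.

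*Idi1*, further along the mevalonate arm, had an amplitude of 0.093 (standard error 0.027) with a peak at ZT 4.20 and an adjusted p of 0.0745. It passed in 8 of 13 other fits, among them edgeR (0.0300) and the fit after median-of-ratios scaling (0.0310). The genes of the sterol arm had smaller amplitudes against their errors, 0.068 for *Sqle* (standard error 0.039), 0.075 for *Fdft1* (0.034) and 0.055 for *Cyp51* (0.041), with adjusted p of 0.501, 0.343 and 0.653. *Srebf2* had the smallest, 0.025 (0.029, adjusted p = 0.833), with group means between 86.0 TPM (control, ZT10) and 103.1 TPM (PLX5622, ZT14). Thus 2 of the 7 genes were called, against a background of 5.26% of all genes. Of the other pathway genes *Mvd*, the decarboxylase of the mevalonate arm, had a rhythm with an amplitude of 0.17 and a peak at ZT 7.04 (adjusted p = 0.00151), and so did *Nsdhl*, with 0.13 and ZT 8.14 (0.0290). The call of *Nsdhl* was lost without the second control mouse at ZT10 (adjusted p = 0.0514, limma). These were 2 of the other 13 genes of the 2 arms, of which edgeR called 5 and DESeq2 6. Both tools also called more of all genes than limma, 2066 of 18274 with edgeR and 2420 of 18435 with DESeq2. In the sterol arm limma called 1 of the other 8, and edgeR and DESeq2 4 each. Limma called 0 of the other 5 SREBP regulators, 0 of the 16 genes of uptake, transport and turnover and 0 of the 9 of fatty acid synthesis, with 0, 2 and 0 at an unadjusted p under 0.05, and edgeR called 0, 1 and 1. Among the cell type lists, limma called 2 of 8 endothelial genes and 1 gene each of the astrocyte, oligodendrocyte and precursor lists for rhythm. Of the endothelial genes 5 had an unadjusted p under 0.05 in limma, and edgeR and DESeq2 called 7 each. In the astrocyte, oligodendrocyte and precursor lists edgeR and DESeq2 each called 1, 2 and 1. The part of these cell types in the rhythms of the 7 genes was not tested. The mitochondrial share also moved over the day. In control mice its mean was highest at ZT18 (8.87%), where *Hmgcs1* was lowest, and lowest at ZT14 (7.46%). With the share as a covariate both rhythms were called (adjusted p of 0.00125 for *Insig1* and 7.953e-04 for *Hmgcs1*).

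Within a single diet no rhythm of the 7 genes was called. JTK_CYCLE called 0 of 7 in control mice, against 0.0754% of all genes, and 0 of 7 in PLX5622 mice, against 0.61%. The exact null of the JTK_CYCLE statistic gave *Hmgcs1* an unadjusted p of 0.00548 in control mice (adjusted 0.296) and *Insig1* one of 0.0362 in PLX5622 mice (adjusted 0.401), and the other genes were above 0.05. The limma F test within each diet called 0 of 7 as well, against 36 of 14580 genes in control and 135 in PLX5622 mice. Its unadjusted p was 0.00898 for *Hmgcs1* and 0.0118 for *Insig1* in control mice, and 0.00801 for *Insig1* in PLX5622 mice. The other genes were above 0.05.

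Next, it was asked whether the rhythms differed between the diets. The limma interaction called 0 of 7 genes and 0 of the 14580 genes (a background of 0%), with 0 of 7 and 669 genes at an unadjusted p under 0.05, and edgeR called 0 of both (17 of all genes without a filter). For *Insig1* the amplitude was 0.22 (standard error 0.068) on control chow and 0.19 (0.054) on PLX5622, a difference of -0.037 with a 95% interval of -0.21 to 0.13, and the peaks were at ZT 9.39 and ZT 8.77. For *Hmgcs1* it was 0.15 (0.044) and 0.083 (0.035), a difference of -0.066 (-0.18 to 0.044), with peaks at ZT 6.42 and ZT 5.45. The smallest unadjusted p of the 7 was 0.116, for *Cyp51*, whose fitted peaks were at ZT 5.31 (standard error 1.92 h) and ZT 13.6 (3.04 h). The intervals allow that a rhythm was lost in large part, so that equal rhythms are not shown.

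Between the dark and the light phase 0 of 7 genes were called in limma, against 1.28% of all genes, with 2 of 7 at an unadjusted p under 0.05. *Hmgcs1* had the largest difference, -0.14 (dark minus light, log2 scale, standard error 0.040) with an adjusted p of 0.0602. The call differed between fits. It was made in 7 of 12 other fits, with a difference of -0.17 in edgeR (adjusted p = 6.684e-04) and in DESeq2 (2.741e-05), and in 7 of 47 fits that left out a library. *Idi1* differed by -0.084 (adjusted p = 0.327), *Insig1* by -0.10 (0.509) and *Srebf2* by 0.047 (0.623).

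**Figure D3:**
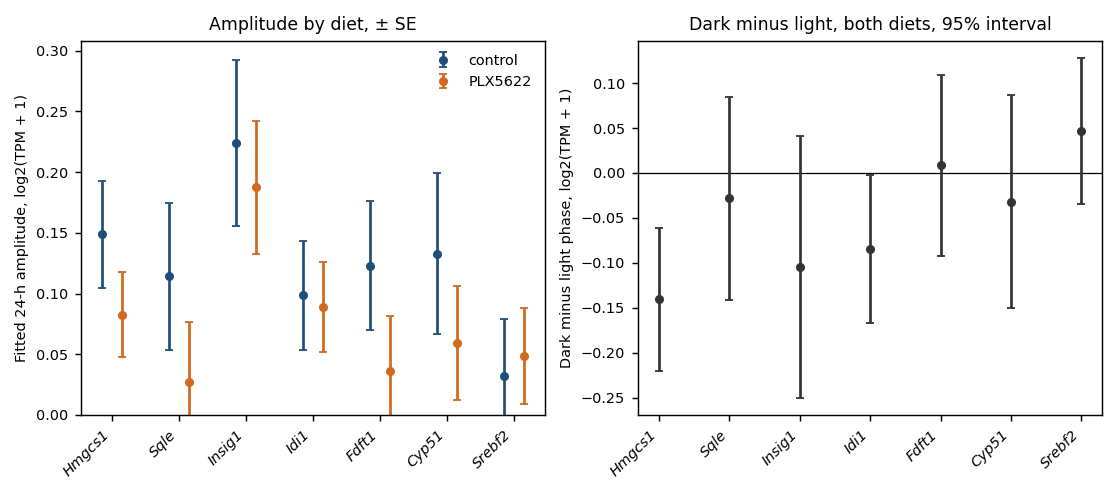
Left, fitted 24-h amplitude on the log2(TPM + 1) scale (vertical axis, from 0) for each of the 7 genes in control and PLX5622 mice, with standard errors cut at 0. Right, the dark minus light difference over both diets with its 95% interval: *Insig1* has the largest amplitude in both diets (0.22 and 0.19), and the interval of *Hmgcs1* lies below 0.

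Mice of the same diet and time can still differ, and the genes of a pathway may then move together. For each gene the deviation of a mouse from the mean of its group was taken on the log2(TPM + 1) scale, and the 21 pairs of genes were correlated over the 47 mice. All 21 correlations were above 0, from 0.023 (*Idi1* and *Fdft1*) to 0.88 (*Sqle* and *Fdft1*), with a mean of 0.41. Of the 21 pairs 12 passed a two-sided permutation test within groups, adjusted over the 21. The share of pairs of other genes that would pass was not computed, so the count does not mark these genes out. Each gene's median correlation with its partners, 0.146 (*Idi1*) to 0.524 (*Sqle*), was above that with other genes, 0.039 (*Idi1*) to 0.314 (*Insig1*). Many other genes were closer, with the partners at median ranks of 1596 (*Cyp51*) to 5263 (*Fdft1*) among all genes. The mean of the 21 pairs was 0.47 in control mice alone and 0.34 in PLX5622 mice alone. Their median went the other way, with 0.48 in control and 0.55 in PLX5622 mice.

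The values of *Sqle* and *Fdft1* show how close this was. In the 4 control mice at ZT2, *Sqle* was at 24.3, 22.3, 29.3 and 35.1 TPM and *Fdft1* at 29.9, 25.8, 33.7 and 37.3 TPM, in the same order of mice. Over all 47 mice Pearson's r was 0.88 (adjusted permutation p = 2.1e-04, the smallest the permutations can give after adjustment) and Spearman's rho was 0.87 (adjusted permutation p = 2.1e-04). The correlation was 0.86 without the 2 mice farthest from the median of *Sqle*, 0.88 in control mice and 0.89 in PLX5622 mice. It was kept at 0.73 after median-of-ratios scaling (adjusted permutation p = 0.00126) and at 0.69 with the mitochondrial share taken out.

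In the deposited TPM, *Sqle* came next closest with *Insig1* (r = 0.66) and *Srebf2* (0.62), and *Insig1* with *Fdft1* followed (0.59). Their r fell to 0.26, 0.20 and 0.16 after median-of-ratios scaling. *Idi1* and *Cyp51* had an r of 0.54 (adjusted permutation p = 0.00614) and a rho of 0.48 (0.0144). The r of this pair was 0.44 without the 2 mice farthest from the median of *Idi1*, 0.45 in control mice and 0.68 in PLX5622 mice. After median-of-ratios scaling it was 0.55 (adjusted permutation p = 0.0115). *Hmgcs1* and *Idi1*, both of the mevalonate arm, had an r of 0.27 (adjusted permutation p = 0.148) and a rho of 0.22 (0.223), and passed only after the scaling, with 0.42 (0.0115). *Hmgcs1* correlated at 0.40 with *Sqle* and at 0.35 with *Fdft1* in the deposited TPM, and both turned to -0.09 after the scaling. The correlations of *Srebf2* with its 6 partners ran from 0.032 (*Idi1*) to 0.62 (*Sqle*), and after the scaling from 0.087 (*Insig1*) to 0.41 (*Cyp51*, adjusted permutation p = 0.0605).

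**Figure D4:**
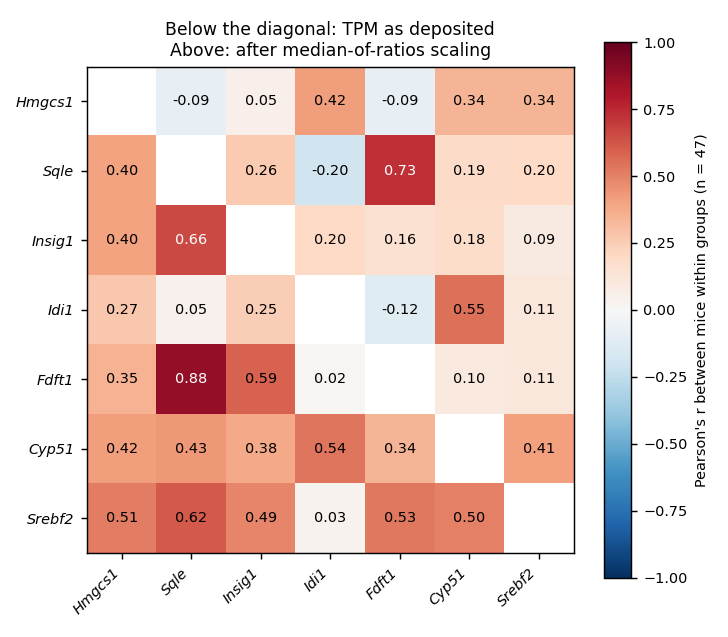
Pearson's r between the 7 genes over the deviations of the 47 mice from their group means, below the diagonal for the TPM as deposited and above it after median-of-ratios scaling; red is positive and blue negative. *Sqle* and *Fdft1* (0.88 and 0.73) and *Idi1* and *Cyp51* (0.54 and 0.55) stay high in both, and *Hmgcs1* with *Sqle* goes from 0.40 to -0.09.

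Most of the other pairs moved with the scale of the library. The mean r of the 21 pairs fell to 0.19 after median-of-ratios scaling, to 0.20 in CPM (counts scaled to library size) with TMM factors and to 0.14 with the mitochondrial share taken out, and 3 of 21 pairs passed after the scaling. The mean deviation of the 7 genes in a mouse had an r of -0.82 with the deviation of its mitochondrial share (rho -0.81, -0.78 without the 2 farthest mice, -0.79 in control mice, -0.87 in PLX5622 mice), over 47 mice whose TPM share a fixed sum with the mitochondrial transcripts. The median gene of all 14580 had an r of 0.34 with the mean of the 7 genes, and of 0.0018 after the scaling. Each of the 7 had an r with the mean of the other 6 from 0.25 (*Idi1*) to 0.73 (*Sqle*) in the deposited TPM. The mean of the other genes had an r with the 7 genes of 0.82 for the mevalonate arm and 0.84 for the sterol arm. Taken singly, these genes had an r from 0.24 to 0.80. The list mean was at 0.73 for the other SREBP regulators, 0.74 for uptake, transport and turnover and 0.75 for fatty acid synthesis. Among the means of the 8 cell type lists, r was highest for endothelial cells and oligodendrocyte precursors (0.76 each), then 0.62 for neurons. It was 0.43 for oligodendrocytes, 0.38 for astrocytes and 0.048 for microglia, and under 0 for choroid plexus (-0.105) and striatum (-0.36). For microglia it was 0.75 in control mice alone and -0.14 in PLX5622 mice alone. Deviations in TPM and in CPM of the same mouse had an r from 0.50 (*Cyp51*) to 0.82 (*Sqle*) for the 7 genes, and from 0.71 (*Cyp51*) to 0.99 (*Sqle*) once the TPM were scaled.

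**Figure D5:**
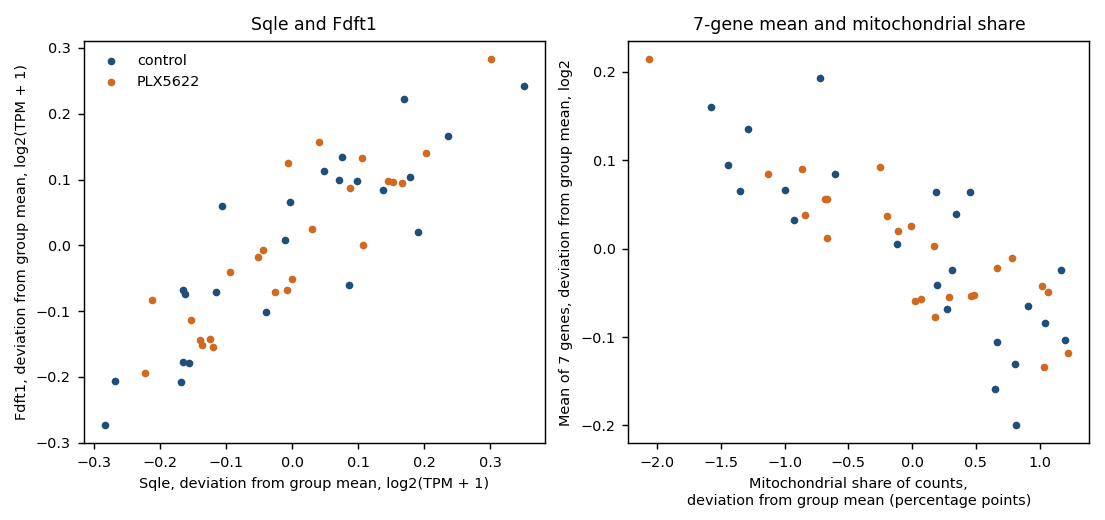
Left, deviations from the group mean in log2(TPM + 1) of *Sqle* (horizontal axis) and *Fdft1* (vertical axis) for 47 mice, coloured by diet, with an r of 0.88. Right, the deviation of the mitochondrial share of counts in percentage points (horizontal axis) and the mean deviation of the 7 genes on the log2 scale (vertical axis), with an r of -0.82.

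The genes most like the mean of the 7, by the correlation of deviations over 47 mice, were *Rab5b* (r = 0.88), *Eif2s3x* (0.87), *Cadm4* (0.86), *Uhmk1* (0.86), *Tmbim6* (0.85), *Eif4h* (0.85), *Mapk8ip2* (0.85), *Nefl* (0.85), *Nmnat2* (0.84) and *Papss1* (0.84), none of which is on a list of the pathway. After the scaling 2 of these, *Cadm4* and *Tmbim6*, were still among the first 10. Of the other 13 genes of the 2 arms 10 then ranked nearer to the 7 and 3 farther. *Msmo1* was at place 11 (r = 0.65) in place of 59 (0.80). *Dhcr7*, a reductase of the last steps, was at place 72 (0.58) in place of 568 (0.71). The 3 farther were *Acat2* (5864 in place of 1913), *Ebp* (7370 in place of 4967) and *Hsd17b7* (3364 in place of 2315). These genes were named here after their ranks were seen. The share of all genes that ranked nearer was not computed. Of the 7 genes only *Sqle* and *Fdft1* had another of the 7 among the 100 genes most like it, each other, at places 12 and 18.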

How the data were processed

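The authors mapped paired-end reads to GRCm38.p6 with STAR and computed the TPM table with Salmon and the Gencode annotation, and STAR, featureCounts, edgeR, limma and mm10 stand in the submitters' processing notes. Their deposited TPM values had not been corrected for sequencing metrics. The second deposited table is named for FPKM but holds whole-number counts per gene, used here as counts for 54532 genes. Its annotation is not given in the sources used here.

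Genes averaging 1 TPM or more over all libraries were tested on log2(TPM + 1), which understates changes of low genes, with limma 3.58.1 in R 4.3.3: diet with the cosine and sine of ZT at 24 h, the F test of both time terms, their interaction with diet, and dark against light. JTK_CYCLE was written for this purpose with 6 phases, since MetaCycle was not at hand. Its p is the upper tail of the best phase times 6, a form chosen after its counts were seen. P-values were adjusted by Benjamini-Hochberg over all genes tested, with a threshold of 0.05. Intervals are 95%. Correlations used 100000 permutations within groups. Alternatives used edgeR 4.0.16 and DESeq2 1.42.0 on the counts. Figures were made with matplotlib 3.10.9. The tests were run first on simulated data, 13984 genes for limma and JTK_CYCLE with 200 of them changed by 1 on the log2 scale. Limma recovered 100% for diet and rhythm with 6.54% and 10.3% false calls, and JTK_CYCLE 98.5% in control mice. Both shares of false calls were above the threshold of 0.05. The seeded change was larger than any fold change or amplitude of the 7 genes, so recovery of changes of their size was not tested.

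The 7 genes and all lists were chosen with earlier results of these data known. Named were these 7, the pathway list genes that passed a test of the main model, and the 10 genes most like the 7. *Dhcr7*, *Acat2*, *Ebp*, *Hsd17b7* and the genes that overlap the 7 were named outside this rule, after their values were seen. A gene of the sterol arm list is not reported here and was left out of its counts. Nothing says whether the mice of a group shared a cage (they were housed 4 to a cage). If they did, cage and group cannot be told apart. The p-values take the mice as independent. No 2 libraries of a group agreed within sampling noise (smallest chi-square per degree of freedom 4.30 over 69 pairs).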

Additional observations from a re-analysis of the deposited data

Results flagged for a closer look

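In 1 of the 77 groups of 4 mice examined for the 7 genes, a single mouse lay far from the others of its group. *Srebf2* was at 107.3 TPM in the fourth PLX5622 mouse at ZT18, where the other 3 were at 86.4 to 89.9 TPM. Chance alone gives about 1 in 20 such groups, or 3.85 here.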

How the results depend on the processing

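The number of the 7 genes called for PLX5622 was 1 and became 2 with edgeR under TMM or DESeq2 size factors and with DESeq2, 0 with edgeR without a filter, and 3 with the mitochondrial share as a covariate. It was 1 in all 47 fits without a single library. The number called between dark and light was 0 and became 1 (*Hmgcs1*) after median-of-ratios scaling, with TPM without mitochondrial genes, with the mitochondrial share as a covariate, in the 3 edgeR fits and with DESeq2, and ran from 0 to 1 without single libraries, with 1 without control replicate 3 or 4 at ZT2, 3 at ZT10, or 1 or 3 at ZT14, or PLX5622 replicate 3 or 4 at ZT22. The number with a rhythm was 2 to 3 in every other fit, and those within a diet or with different rhythms stayed 0 in every fit run. Doubling the tail in JTK_CYCLE, added after the data were seen, left 0 of 7 and brought the calls over all genes from 11 to 2 in control mice and from 89 to 38 in PLX5622 mice. The mean correlation of 0.41 became 0.51 with the replicate block, 0.20 in CPM with TMM, 0.19 after median-of-ratios scaling, 0.26 with TPM without mitochondrial genes and 0.14 with the mitochondrial share as a covariate, and ran from 0.37 to 0.44 without single libraries. The sign of *Srebf2* with PLX5622 reversed with edgeR (-0.0095 with TMM, -0.012 with DESeq2 size factors, -0.0039 without a filter) and DESeq2 (-0.012). The dark minus light difference of *Fdft1*, 0.0084, reversed after median-of-ratios scaling (-0.018), with the mitochondrial share (-0.036), with edgeR (-0.0098 with TMM, -0.0095 with DESeq2 size factors, -0.0095 without a filter) and DESeq2 (-0.0098), and ran from -0.011 to 0.024 without single libraries. The cause was not tested.

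The replicate block, which takes the replicate number as a term, changed no other call of the 7 genes than that of the rhythm of *Idi1* (adjusted p = 0.0412). Same-numbered mice of both diets at a ZT had correlations of their deviations from -0.093 to 0.199, over 0.1 in 7 of 23 pairs. Their median was 0.072. Between mice of any 2 groups the median was 0.055 for the same number and -0.019 for other numbers. The block brought the rhythm calls over all genes from 767 to 1043. The numbers were not taken as pairs in the main fits, and what same-numbered mice shared was not tested. Over all genes, the calls for PLX5622 went from 503 to at most 1365 (DESeq2) and at least 298 (a mean of at least 5 TPM), those for rhythm from 767 to 2420 (DESeq2), and those between dark and light from 186 to 932 (DESeq2) and 100 (no filter). The other mevalonate genes called for rhythm went from 1 to 2 in 8 other fits and those of the sterol arm from 1 to at most 4 (edgeR, DESeq2). The diets were not compared at single Zeitgeber times.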
